A study of Mus musculus with 4 samples.

Results

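Banp, Paqr9 and Dynll1 are 3 genes without a known common function. They were chosen because their RNA stood higher in the miR-99 KD libraries than in the Scr libraries of this data set, and Dynll2 and Atmin, the close paralogue and a regulator of Dynll1, were added to them as related genes. These are 5 of the 45232 gene rows in the count files, and all 5 were among the 15320 genes with enough reads to be tested. The contrast between the groups chose Banp, Paqr9 and Dynll1, so their differences are given as a description with no test. Dynll2 and Atmin were not chosen by their values, and their differences were tested in the fit over all genes.

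The cells were mouse LSK cells, the early blood-forming cells that lack lineage markers and carry Kit and Sca-1 on their surface. Donor long-term haematopoietic stem cells that carried GFP and either miR-99 KD, a block of that microRNA, or the control Scr had been transplanted, and their GFP-positive LSK descendants were sorted 3 months later. Each group held 2 mice, with 1 RNA library from each, numbered 1 and 2 here as in the sample titles. Both groups share the transplantation, GFP and the sort, while strain, age and construct sequence are not stated.

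BANP is a nuclear protein with a BEN domain that binds unmethylated CpG-containing promoter motifs and interacts with chromatin regulators and p53. DYNLL1 is the small LC8 light chain of cytoplasmic dynein, the motor that carries cargo along microtubules. It also works outside the motor as a hub that holds pairs of partner proteins together, among them proteins of DNA double-strand break repair, and DYNLL2 is its near-identical paralogue. ATMIN is a zinc finger protein that binds the ATM kinase and switches on transcription of Dynll1, and DYNLL1 protein in turn binds ATMIN and restrains that activity. In the mouse B cell lineage the ATMIN and DYNLL1 pair is known for its part in lymphoid development. PAQR9 belongs to the progestin and adipoQ receptor family, whose membrane-spanning proteins include adiponectin receptors and membrane progestin receptors.

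The knockdown is aimed at a family of microRNAs that choose their targets through a shared seed at bases 2 to 8. The mature sequences, from RefSeq on GRCm38.p6, are shown because this seed is the sequence that was looked for in the 5 genes. Capitals mark the seed, which is the same in the 3 family members.
mmu-miR-99a-5p: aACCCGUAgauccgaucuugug
mmu-miR-99b-5p: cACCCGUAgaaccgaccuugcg
mmu-miR-100-5p: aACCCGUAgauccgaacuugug

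The match to this seed in a transcript reads TACGGGT. It was present in the 3′ untranslated region of 0 of the 5 genes, whose longest such regions in GENCODE M21 run to 3623 bases in Banp, 6937 in Paqr9, 1586 in Dynll1, 1908 in Dynll2 and 2386 in Atmin. The shorter match ACGGGT, to bases 2 to 7, was also present in 0 of the 5. Among all tested genes with such a region, 234 (1.82%) held the 7-base match and 1157 (8.999%) the 6-base match. Only these letters were looked for, and mature miR-99 itself was not measured: Mir99a, Mir99b and Mir100 each had 0 counts in every library. The host transcript Mir99ahg stood at 11.9 and 14.1 CPM (reads per 1000000 of the scaled library) in Scr and at 5.003 and 7.34 CPM in the miR-99 KD libraries.

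Each library held 27295197 to 32350590 reads counted in genes. Kit, a marker the sort relied on, was abundant in all 4 libraries but not even between the groups. Its level was 1149 and 1280 CPM in Scr, against 670 and 774 CPM in miR-99 KD, without overlap. The gene of Sca-1, Ly6a, was also lower in both miR-99 KD libraries. Ly6a had 46.5 and 22.8 CPM in Scr libraries 1 and 2, against 12.4 and 22.3 CPM, so the libraries numbered 2 were almost level. Lists of markers of 5 blood cell types were summed in each library, in CPM. The 18 erythroid markers came to 10603 and 12866 in Scr and to 17983 and 18117 in miR-99 KD, led by the carbonic anhydrases Car2 and Car1. The 16 stem cell markers came to 2565 and 2656 in Scr and to 1165 and 1337 in miR-99 KD, led by Adgrg1 and Meis1. The 12 neutrophil markers, led by Ngp and Mpo, set miR-99 KD library 1 apart at 29451, against 5310 to 8414 in the other 3 libraries, and the 11 B cell markers, led by Cd79b and Igll1, did so at 327 against 42.8 to 95.3. The 10 macrophage markers, led by Vcam1 and C1qb, ranged from 200 to 526 over both groups. No marker list had a gene at 0 in all 4 libraries, and the part of these other cells in the results below was not tested.

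Banp was low in the Scr libraries, at 18.5 and 21.0 CPM, and stood at 80.6 CPM in miR-99 KD library 1 and 58.6 CPM in library 2. Both miR-99 KD libraries lay far above both Scr libraries, and the lowest of them was 2.78 times the highest Scr value. The means were 19.8 ± 1.80 CPM in Scr and 69.6 ± 15.6 CPM in miR-99 KD (SD, n = 2 each), a ratio of 3.52 and a log2 difference of 1.82 ± 0.22 (SE). Reads behind the Scr values numbered 619 and 613, and those behind the miR-99 KD values 2127 and 1555. RNA was measured in bulk, so more cells that express a gene and more RNA per cell cannot be told apart.

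Paqr9 stood at 47.8 and 49.98 CPM in Scr and at 105 and 133 CPM in miR-99 KD libraries 1 and 2. The Scr libraries were nearly equal, and the lowest miR-99 KD value was 2.11 times the highest Scr value. Means were 48.9 ± 1.58 and 119 ± 19.6 CPM (SD, n = 2 each), a ratio of 2.44 and a log2 difference of 1.29 ± 0.17 (SE).

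Dynll1 was the most abundant of the 5 genes, at 156 and 152 CPM in Scr, against 314 and 436 CPM in miR-99 KD libraries 1 and 2. Again the groups did not overlap, and the lowest miR-99 KD value was 2.02 times the highest Scr value. Means were 154 ± 2.96 and 375 ± 86.2 CPM (SD, n = 2 each), with a ratio of 2.44 and a log2 difference of 1.29 ± 0.19 (SE), the same as for Paqr9 to the digits shown. Of all genes tested, 3750 (24.5%) had their lowest miR-99 KD value above their highest Scr value, and 379 (2.47%) combined this with a log2 difference of at least 1. The 3 genes were selected for being among these, so nothing is read from that count.

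The miR-99 KD libraries differed from each other, and not in the same direction for the 3 genes. Banp was higher in library 1 than in library 2, by 0.46 on the log2 scale. Paqr9 and Dynll1 were lower in library 1 than in library 2, with log2 differences of -0.34 and -0.47. Library 1 is also the one with the high neutrophil and B cell marker sums. Without miR-99 KD library 1 the log2 difference was 1.56 for Banp, 1.44 for Paqr9 and 1.502 for Dynll1. Without library 2 it was 2.03, 1.11 and 1.03.

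**Figure D1:**
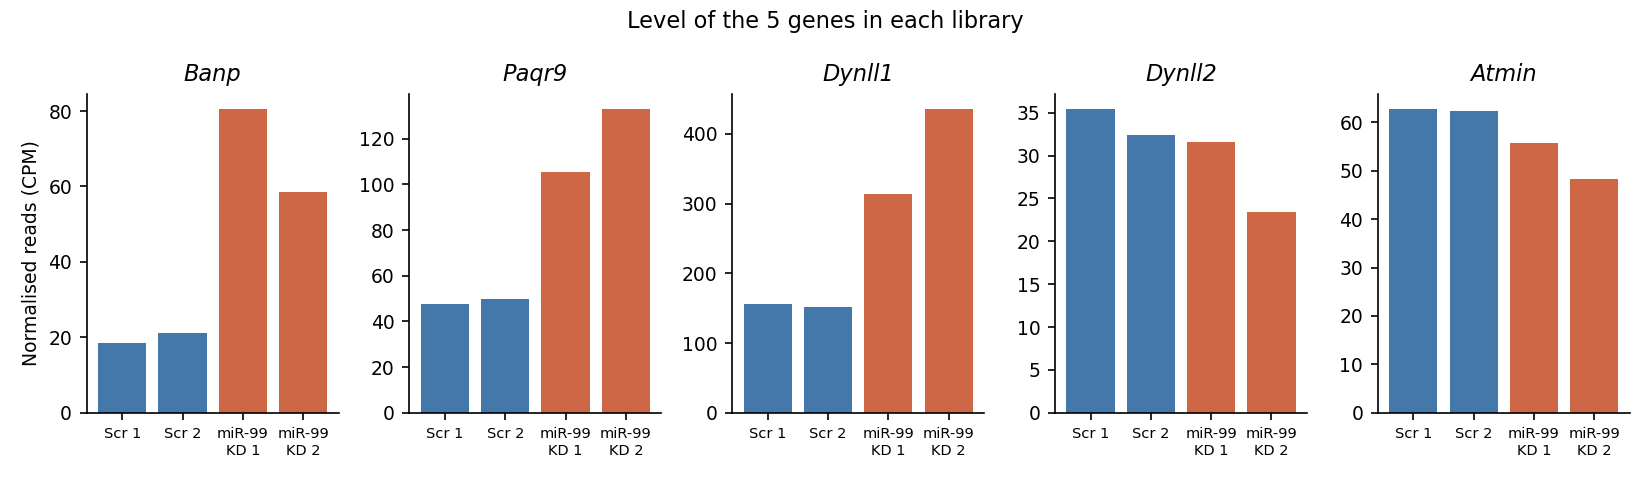
Normalised reads (CPM, linear axis from 0, 1 panel and scale per gene) of Banp, Paqr9, Dynll1, Dynll2 and Atmin in each of the 4 libraries, 1 bar per library, Scr in blue and miR-99 KD in orange. Both miR-99 KD bars are above both Scr bars for Banp, Paqr9 and Dynll1 and below both for Dynll2 and Atmin.

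Dynll2, which encodes the second LC8 light chain, went the other way in level. It stood at 35.5 and 32.4 CPM in Scr and at 31.5 and 23.4 CPM in miR-99 KD. The groups did not overlap, but Scr library 2 and miR-99 KD library 1 were almost level, and without miR-99 KD library 2 the log2 difference was only -0.10. With all 4 libraries the log2 difference was -0.31 ± 0.22 (SE, n = 2 each), with an adjusted p of 0.526 in edgeR (quasi-likelihood, Benjamini-Hochberg over all genes) and 0.556 in DESeq2.

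Atmin, the activator of Dynll1 transcription, stood at 62.8 and 62.4 CPM in Scr and at 55.7 and 48.2 CPM in miR-99 KD. Both miR-99 KD libraries lay below the pair of nearly identical Scr values. The log2 difference was -0.27 ± 0.16 (SE, n = 2 each), with an adjusted p of 0.450 in edgeR and 0.459 in DESeq2. So 0 of the 2 related genes passed the test.

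edgeR called no gene of the whole table at an adjusted p under 0.05 (0 of 15320, 0%), with a lowest adjusted p of 0.191. At an unadjusted p under 0.05 it put 915 genes higher (5.97%) and 1475 lower (9.63%), against 503 and 1898 in the fit that used only library totals. DESeq2 called 258 of 12646 genes higher (2.04%) and 638 lower (5.05%). In 3983 genes (26%) the highest miR-99 KD value was under the lowest Scr value, as it was for Dynll2 and Atmin, so a gap of this kind between 2 libraries and 2 libraries is common here. An exact permutation test of a single gene, 2 libraries against 2, cannot give a two-sided p below 0.333.

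Levels can be compared between the genes only per length, here as CPM per kilobase of annotated exon. In the Scr libraries Dynll1 led at 40.1 and 39.0, and Dynll2 (13.0 and 11.9) and Atmin (12.9 and 12.8) followed with overlapping values. Paqr9 came next at 5.71 and 5.97, and Banp was the lowest at 2.79 and 3.17. In the miR-99 KD libraries Dynll1 again led at 80.8 and 112, and Paqr9 was second at 12.6 and 15.9. Banp (12.2 and 8.83), Dynll2 (11.5 and 8.56) and Atmin (11.4 and 9.88) overlapped below it. This order can change with the length used, and only the ratios below were also taken with the longest transcript.

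Because the light chains Dynll1 and Dynll2 encode nearly the same protein, their ratio within a library describes which of them supplies most of the LC8 transcript. Per length, Dynll1 was 3.09 and 3.29 times Dynll2 in the Scr libraries and 7.01 and 13.1 times in the miR-99 KD libraries. The Scr ratios were close together and the miR-99 KD ratios were both higher but far apart, at means of 3.19 ± 0.140 and 10.1 ± 4.31 (SD, n = 2 each). Dynll1 made up 75.5% and 76.7% of the pair in Scr, against 87.5% and 92.9% in miR-99 KD. The summed level of the pair was 53.0 and 50.8 CPM per kilobase in Scr, against 92.3 and 121 in miR-99 KD. With the length of the longest transcript in place of all annotated exons, the mean ratios were 5.01 and 15.8. The ratio of Dynll1 to its activator Atmin, per length, was 3.11 and 3.05 in Scr, against 7.07 and 11.3 in miR-99 KD.

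**Figure D2:**
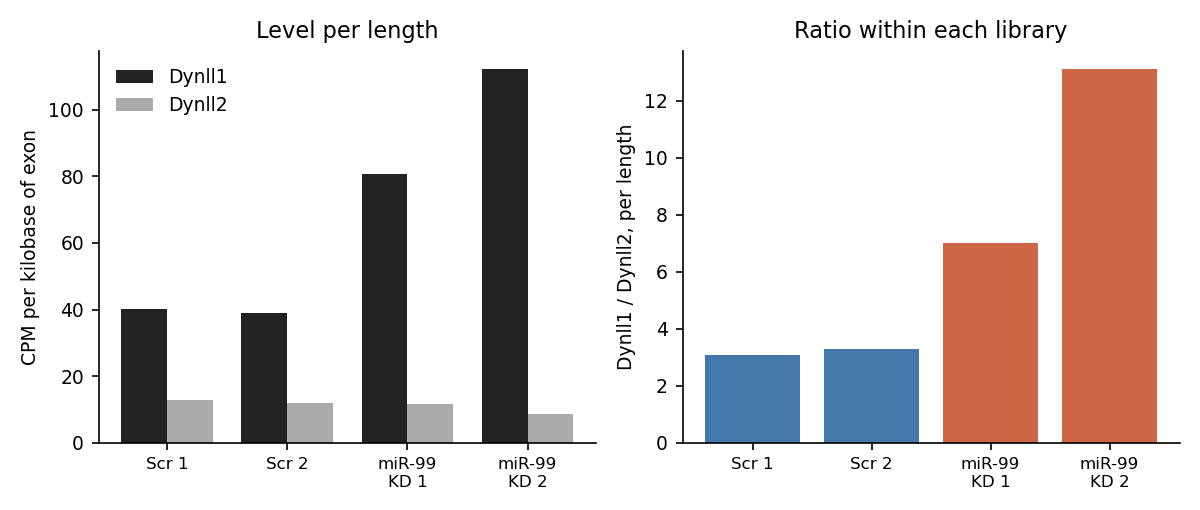
Left, level of Dynll1 (black) and Dynll2 (grey) in CPM per kilobase of exon in each library. Right, the ratio of the same values within each library, 1 bar per library, Scr in blue and miR-99 KD in orange. The ratio is 3.09 and 3.29 in Scr, against 7.01 and 13.1 in miR-99 KD.

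The other subunits of cytoplasmic dynein had smaller differences than Dynll1, or larger errors. Dynll1 was chosen for being higher, so nothing is read from its place among them. Of 14 tested subunit genes without Dynll1, 1 was higher at an unadjusted p under 0.05, 0 were lower, 5 lay above and 3 below in both miR-99 KD libraries, and 6 overlapped. Over all genes tested 5.97% were higher and 9.63% lower at that threshold, and the non-overlapping shares were 24.5% above and 26% below. The median log2 difference of the 14 was 0.11, against 0.02 over all genes tested, and it was 0.02 with library totals alone and -0.06 without Scr library 2. The higher one was Dync1i2, an intermediate chain that carries the light chains, at 67.4 and 68.8 CPM in Scr, against 81.7 and 96.8 CPM in miR-99 KD (log2 difference 0.39 ± 0.15, SE). It missed that threshold in limma-voom, with library totals alone, with upper quartile scaling, without a filter on low counts, without either Scr library and without miR-99 KD library 2. The light intermediate chains stood at different places, Dync1li1 at 76.5 and 71.7 against 81.3 and 96.1 CPM and Dync1li2 at 82.0 and 107 against 72.4 and 66.5 CPM. The heavy chain Dync1h1, named after its values were seen as the motor subunit itself, stood at 68.3 and 66.2 against 71.1 and 77.2 CPM.

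Among 19 tested genes of dynactin and the dynein adaptors, which link the motor to its cargo, 2 were higher and 0 lower at an unadjusted p under 0.05. These were Spdl1, an adaptor at kinetochores (log2 difference 0.52 ± 0.17), and the dynactin subunit Dctn3 (0.37 ± 0.13). Both missed that threshold with library totals alone, without either Scr library and without miR-99 KD library 2, and Dctn3 also without a filter on low counts and without miR-99 KD library 1. Hook2 and Actr1b, next in order of p, had log2 differences of -0.44 and -0.30. Without overlap between the groups, 7 of the 19 stood higher and 3 lower, where 24.5% and 26% of all genes did. Over all genes, 5.97% were higher and 9.63% lower at an unadjusted p under 0.05.

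Partners that DYNLL1 protein binds, together with genes of DNA end processing on which it acts, formed a list of 20 tested genes. In this list 0 were higher and 3 lower at an unadjusted p under 0.05, and DESeq2 called the same 3 lower after adjustment. Over all genes these shares of lower genes were 9.63% in edgeR and 5.05% in DESeq2. Trp53bp1, a scaffold of double-strand break repair that binds LC8, stood at 57.9 and 72.4 CPM in Scr and at 36.9 and 26.1 CPM in miR-99 KD. Its log2 difference was -1.05 ± 0.24 (SE, n = 2 each), with an adjusted p of 0.224 in edgeR and 0.00597 in DESeq2. Nek9, a mitotic kinase that binds LC8, stood at 46.9 and 51.3 against 30.6 and 26.3 CPM (-0.79 ± 0.18). Pak1, a kinase reported to phosphorylate LC8, stood at 81.3 and 79.2 against 56.8 and 48.2 CPM (-0.61 ± 0.16). The groups did not overlap for any of the 3, yet the unadjusted count fell to 0 without Scr library 2. Exo1, the end-resection nuclease, stood at 72.5 and 86.9 against 90.2 and 110 CPM and did not pass.

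**Figure D3:**
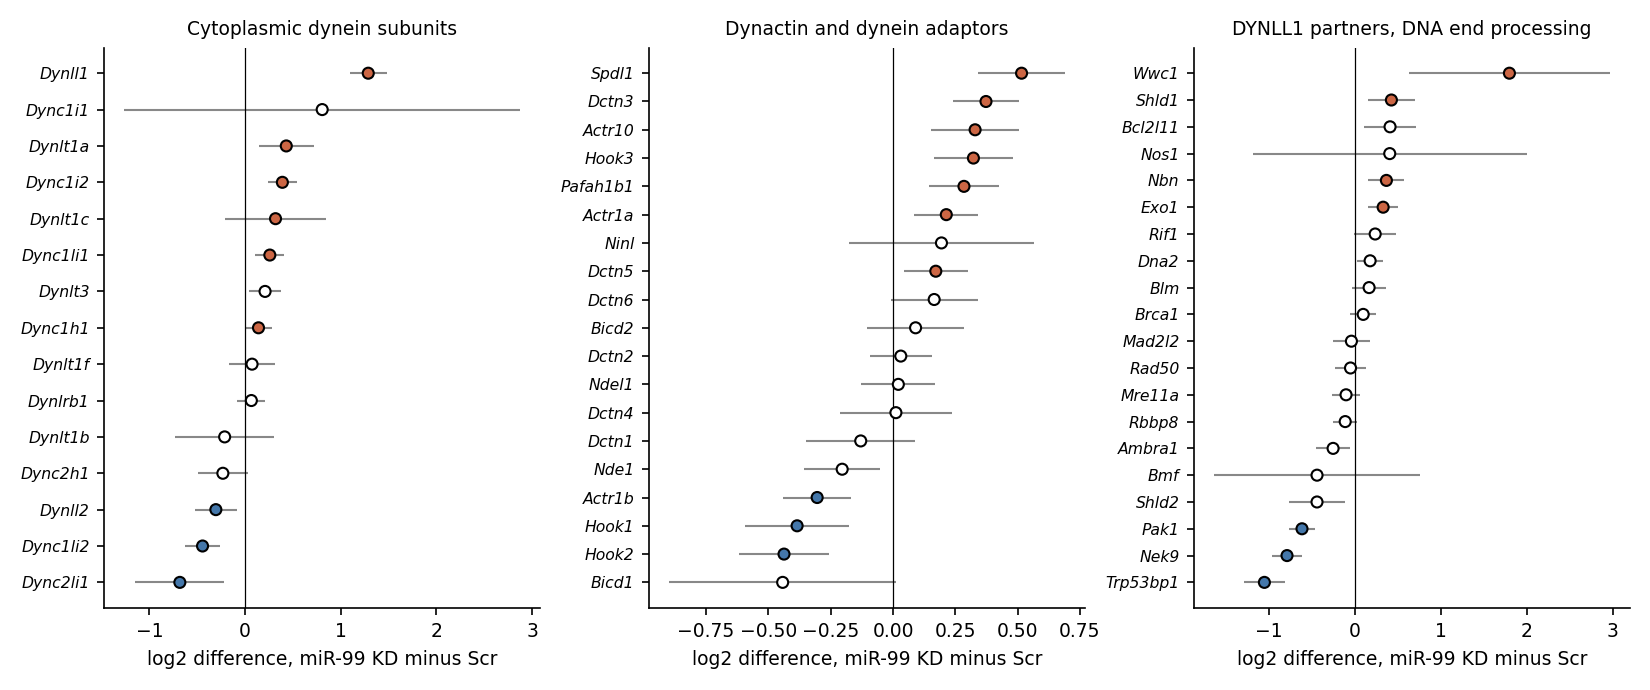
Log2 difference (miR-99 KD minus Scr, linear axis, a separate scale per panel) with its SE for the tested genes of 3 lists. Orange points have both miR-99 KD libraries above both Scr libraries, blue points have both below, and open points overlap. Dynll1, chosen for being higher, lies at 1.29, and the other dynein subunits centre on a median of 0.11. Trp53bp1, Nek9 and Pak1 form the lower end of the partner list.

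ATMIN works through the ATM kinase, whose pathway answers DNA breaks. Of 14 tested genes of that pathway, Atmin included, 1 was higher and 0 lower at an unadjusted p under 0.05. Over all genes these shares were 5.97% and 9.63%. In both miR-99 KD libraries 5 of the 14 lay above and 2 below, where 24.5% and 26% of all genes did, and 7 overlapped. The gene that passed was the checkpoint kinase Chek2, at 70.1 and 75.3 CPM in Scr, against 90.5 and 114 CPM in miR-99 KD (log2 difference 0.49 ± 0.17). It missed the threshold with library totals alone, without either Scr library and without miR-99 KD library 2. Trp53 stood at 288 and 290 against 329 and 378 CPM, and Nbn, a subunit of the break sensor, at 107 and 109 against 113 and 165 CPM, and neither passed.

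Genes tied to BANP gave no call. Of 15 tested partners and genes it is reported to repress, 0 were higher and 0 lower at an unadjusted p under 0.05. Over all genes these shares were 5.97% and 9.63%. In both miR-99 KD libraries 5 of the 15 lay above and 1 below, where 24.5% and 26% of all genes did, and 9 overlapped. The 4 with the smallest p were Mdm2, Trp53, Sin3b and Smad7, with log2 differences of 0.28, 0.29, 0.20 and -0.40. Among the 7 other tested BEN domain genes 0 passed in either direction, with 0 above, 2 below and 5 overlapping. Bend4 stood at 11.1 and 11.8 against 5.95 and 8.40 CPM, Bend5 at 3.68 and 3.84 against 1.25 and 2.30 CPM, and Nacc1 overlapped between the groups. Banp was chosen for being higher, so nothing is read from its place among the BEN domain genes.

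The remaining 12 tested genes of the PAQR family and the associated progesterone receptor membrane components gave 0 higher and 3 lower at an unadjusted p under 0.05, with 2 above, 5 below and 5 overlapping, and a median log2 difference of -0.11. Over all genes, 5.97% were higher and 9.63% lower at that threshold, and 24.5% lay above and 26% below. The largest log2 difference of the 12 was 1.33, above the 1.29 of Paqr9, in a gene that did not pass. Without a filter on low counts 1 of the 12 was higher at that threshold. Paqr5, a membrane progestin receptor, stood at 19.9 and 19.7 CPM in Scr and at 5.08 and 4.71 CPM in miR-99 KD. Values were tight within each group, and the log2 difference was -2.02 ± 0.23 (SE, n = 2 each), with an adjusted p of 0.191 in edgeR. DESeq2 called it lower, the only call of the 12. Leaving out 1 library in turn kept it between -2.08 and -1.96.

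Paqr7, another membrane progestin receptor, stood at 49.4 and 42.4 CPM in Scr and at 33.0 and 16.9 CPM in miR-99 KD (log2 difference -0.88 ± 0.34). Paqr3, a Golgi protein that tethers Raf kinase, was low, at 2.78 and 1.96 against 0.985 and 0.602 CPM (-1.57 ± 0.57). Both lost the unadjusted threshold without either Scr library and without miR-99 KD library 2, Paqr7 also with RLE scaling, and Paqr3 also in DESeq2. Further family members were picked out after their values were seen. Paqr8, the remaining well-expressed membrane progestin receptor, overlapped at 20.0 and 20.1 against 11.03 and 20.9 CPM, and the adiponectin receptor Adipor1 overlapped at 253 and 216 against 373 and 251 CPM. Per kilobase of exon, Paqr7 led the receptors Paqr5 to Paqr9 in the Scr libraries at 11.6 and 9.95, ahead of Paqr9 at 5.71 and 5.97 and Paqr5 at 5.03 and 4.99. In the miR-99 KD libraries Paqr9 led at 12.6 and 15.9, with Paqr7 at 7.75 and 3.98 and Paqr5 at 1.28 and 1.19. Paqr9 was chosen for being higher there, so nothing is read from its lead.

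**Figure D4:**
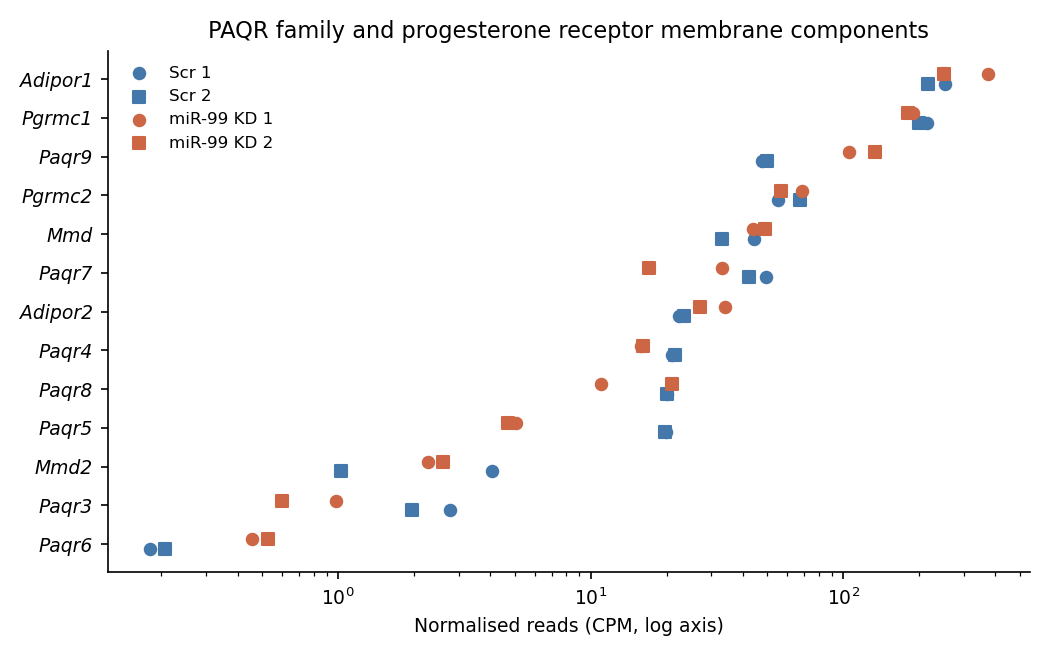
Normalised reads (CPM, log axis) of the 13 tested genes of the PAQR family list, 1 marker per library, Scr in blue and miR-99 KD in orange. Both miR-99 KD markers of Paqr9 lie to the right of its own Scr markers, and those of Paqr5 to the left of its own. Adipor1, Pgrmc2 and Mmd overlap between the groups.

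To see which genes followed each of the 3 most closely over the 4 libraries, distances between centred log2 CPM profiles were taken over 9516 genes with a mean of at least 10 CPM. With only 4 libraries, and with the values that chose the 3 genes among those compared, this is a description of these libraries. The nearest gene to Paqr9 was Dynll1, and the nearest to Dynll1 was Paqr9, at a root mean square distance of 0.0612 on the log2 scale. Both had among their next nearest Tfrc, the transferrin receptor (431 and 439 CPM in Scr, 869 and 1020 CPM in miR-99 KD), and Ccne1, the cyclin of S phase entry (142 and 149 against 265 and 359 CPM). Tfrc is one of the 18 erythroid markers, 12 of which lay above in both miR-99 KD libraries and 0 below, against 24.5% and 26% of all genes. The collagen gene Col5a1 and the processed pseudogene Gm8355 completed the 5 nearest to Paqr9, and Mns1 and the processed pseudogene Gm15459 those to Dynll1.

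The nearest gene to Banp was Phlda3, a p53-induced inhibitor of Akt, at a distance of 0.205 (4.602 and 6.49 CPM in Scr, 16.8 and 15.5 CPM in miR-99 KD). F630028O10Rik, the co-chaperone Dnaja4, Sparcl1 and Lmcd1 followed at 0.302 to 0.371, and Paqr9 and Dynll1 themselves lay at 0.386 and 0.431. Phlda3, F630028O10Rik, Dnaja4 and Sparcl1, and Gm15459 near Dynll1, were under 10 CPM in both Scr libraries and entered the comparison only through their miR-99 KD values.

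Direct genomic neighbours were looked at for signs of a shift over the whole region. Zfpm1, the next counted gene after Banp, lies 252882 bases from it and encodes FOG1, the cofactor of GATA1 in red cell and platelet precursors. Zfpm1 stood at 203 and 177 CPM in Scr and at 291 and 409 CPM in miR-99 KD (log2 difference 0.88 ± 0.21). DESeq2 called it higher, with an adjusted p of 0.00296, while the edgeR adjusted p was 0.227. Its miR-99 KD libraries ranked opposite to those of Banp, with library 2 the higher. Slc7a5, on the other side of Banp, overlapped at 178 and 211 against 196 and 170 CPM. Coq5, on the other strand, ends 137 bases from the end of Dynll1 in GRCm38. It stood at 62.7 and 63.8 against 69.7 and 67.3 CPM (0.12 ± 0.14), and Srsf9 on the far side of Dynll1 overlapped. U2surp beside Paqr9 and Gcsh beside Atmin overlapped too, and Cenpn, 1885 bases from Atmin, stood at 57.3 and 58.8 against 76.6 and 76.6 CPM. Beside Dynll2, the eosinophil peroxidase gene Epx had 1 and 0 counts in Scr and 397 and 0 counts in miR-99 KD libraries 1 and 2, and the long non-coding gene 2010015M23Rik had 24 to 45 counts. A neighbour had to have 40 counts over all libraries, a minimum set after the counts were seen.

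Some reads may come from overlapping or repeated sequence. The antisense gene Gm27011 shares 3.80% of the exon bases of Banp and had 20 to 31 counts of its own. The processed pseudogene Gm17709 in a Banp intron had 173 to 268 counts and was higher in both miR-99 KD libraries. It stood at 5.17 and 6.49 CPM in Scr, against 8.53 and 10.1 CPM in miR-99 KD (log2 difference 0.68 ± 0.29, edgeR adjusted p 0.345). Whether counting used strand is not stated in the sources used here. Of the 50-base stretches of the longest coding transcript, 0% in Paqr9, Dynll2 and Atmin, 0.982% in Banp and 3.48% in Dynll1 occur in a transcript of another gene.

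The promoters of Dynll1 and Atmin are shown because ATMIN is known to act on the first, and they were the only 2 of the 5 genes matched in the promoter table. The 250 bases before the annotated start are given from RefSeq on GRCm38.p6, with CCAAT, or its reverse complement ATTGG, in capitals. This motif was chosen after the Dynll1 sequence had been read. The Dynll1 promoter lies at chr5:115300991-115301240 on the minus strand and that of Atmin at chr8:116943143-116943392 on the plus strand.
Dynll1: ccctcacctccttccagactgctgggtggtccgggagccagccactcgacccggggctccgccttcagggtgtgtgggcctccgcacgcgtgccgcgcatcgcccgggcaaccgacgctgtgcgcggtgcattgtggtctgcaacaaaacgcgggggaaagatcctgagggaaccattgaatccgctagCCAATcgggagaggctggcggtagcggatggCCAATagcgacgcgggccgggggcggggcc
Atmin: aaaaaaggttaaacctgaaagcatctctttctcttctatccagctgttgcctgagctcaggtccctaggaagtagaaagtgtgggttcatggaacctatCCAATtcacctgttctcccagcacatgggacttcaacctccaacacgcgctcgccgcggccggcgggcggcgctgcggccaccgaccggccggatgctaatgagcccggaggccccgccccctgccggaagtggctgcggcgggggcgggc

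The Dynll1 window held the motif at 2 positions, beginning 61 and 30 bases before the start, and the Atmin window at 1, 151 bases before it. Of 32851 promoters, 33.8% held CCAAT or ATTGG at least once in the same 250 bases and 10.1% at least 2 times. Both promoters are rich in G and C, at 68.8% and 62%, against a median of 52.4%.

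BANP is known to bind a motif with the core CTCGCGAG, which is its own reverse complement. It was absent from both windows above, as was the shorter core TCGCGA, and it was present in 0.919% of all promoters over the table's 300 bases. Of the tested genes, 223 had a promoter with CTCGCGAG. The groups did not overlap, with miR-99 KD on top, in 28.7% of these, and with Scr on top in 23.8%, against 24.5% and 27.2% of the 10480 tested genes whose promoter lacked it. Median log2 differences were 0.06 and 0.01. At an unadjusted p under 0.05, 19 of the 223 were higher and 17 lower, against 682 and 1108 of the 10480 without it. For TCGCGA, which contains no other searched letters but lies within CTCGCGAG, the shares were 29.3% and 21.6% of 593 genes, and 2.50% of all promoters held it. The 300-base window was settled on after counts in the 250 bases before the start had been seen, where 183 genes held CTCGCGAG with 29.5% above and 23.5% below.

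The differences of the 5 genes were set side by side under every fit. Banp ranged from 1.56 to 2.03 on the log2 scale, Paqr9 from 1.11 to 1.44 and Dynll1 from 1.03 to 1.502. Dynll2 ranged from -0.54 to -0.10 and Atmin from -0.38 to -0.17. The extremes came from leaving out a library. The adjusted p of Dynll2 ran from 0.174 to 0.934 and that of Atmin from 0.221 to 0.934, so neither was called under any of these fits.

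**Figure D5:**
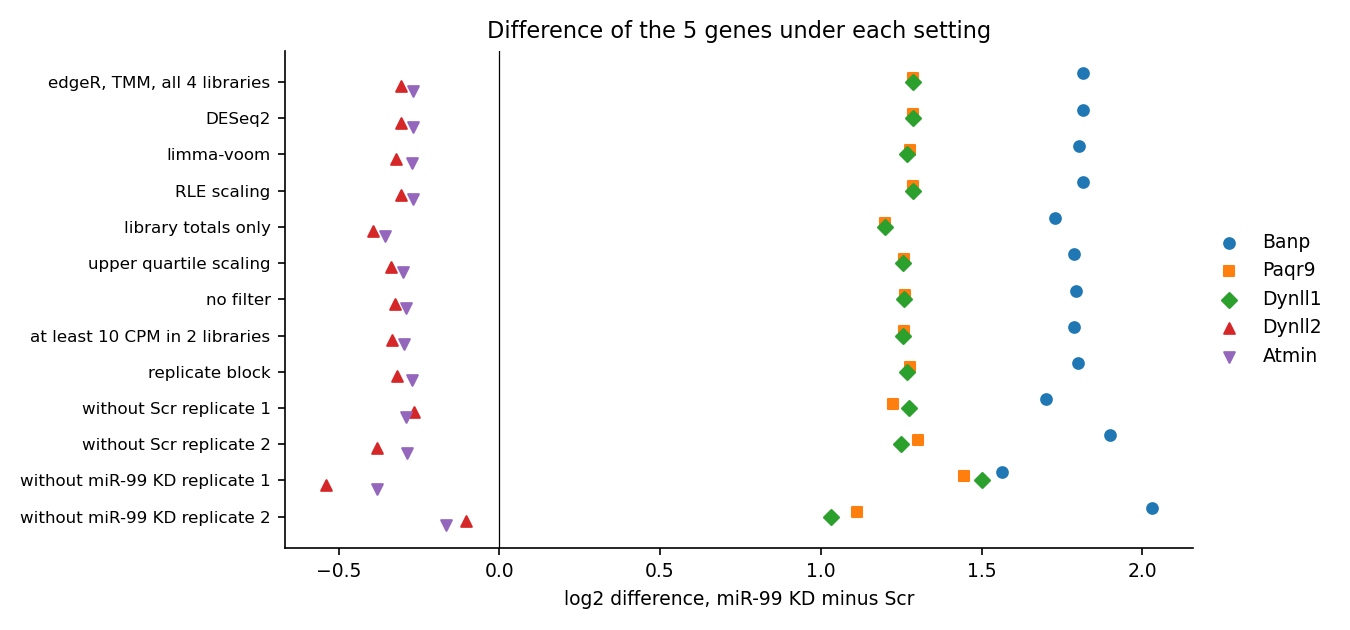
Log2 difference (miR-99 KD minus Scr) of the 5 genes under the edgeR fit reported in the text and 12 alternatives, 1 row per setting and 1 marker per gene. Banp, Paqr9 and Dynll1 are at 1.03 or above in every row, and Dynll2 and Atmin are below 0 in every row, nearest to it without miR-99 KD library 2.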

How the data were processed

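RNA from 4 libraries (2 Scr, 2 miR-99 KD) was amplified with SMARTer, per the labels' protocols. The deposited values are unnormalised read counts per Ensembl gene, and the submitters' processing notes name mm9, STAR, Picard, HTSeq and DESeq2, with no versions. Rows that name no gene were left out. Of the gene counts and these rows together, reads outside genes made up 8.31% to 13.8%. Ambiguous reads made up 1.16% to 1.33% and reads not unique 18.0% to 21.9%. Symbols and exon lengths came from GENCODE M21 on GRCm38, a later build, so no coordinate of the files was used.

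Counts were scaled by TMM, filtered with filterByExpr and tested with edgeR 4.0.16 (quasi-likelihood, Benjamini-Hochberg) in R 4.3.3. The SE is the size of the log2 difference divided by the square root of its F statistic. DESeq2 1.42.0 and limma 3.58.1 were alternatives, and 2674 genes had no DESeq2 adjusted p. The scripts were tested on simulated data. Each member had at least 613 reads in every library, so counting error was at most 4.04% of a value, and covers reads, not molecules or mice. Replicates are 1 library per mouse.

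The members and lists were chosen with earlier results of these data known. Text names the 5 members, up to 4 genes of each list by smallest p, the 5 nearest profiles of each of Banp, Paqr9 and Dynll1, their genomic neighbours and the 2 most abundant genes of each marker list. Of the 19 dynein symbols, Dync2i1, Dync2i2 and Dynlt2b matched no gene row, also by RefSeq synonyms, a step added after they were found missing, and Dynlrb2 had too few reads. The near-identical copies Dynlt1a, Dynlt1b, Dynlt1c and Dynlt1f are uncertain. Rilp, Shld3, Bend2 and Marco were not tested either.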

Additional observations from a re-analysis of the deposited data

How the results depend on the processing

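Genes called by adjusted p rose from 0 to 896 with DESeq2 and to 1064 without a filter on low counts, and were 0 with limma-voom, RLE, upper quartile and library-total scaling and with at least 10 CPM in 2 libraries. Leaving out 1 library gave 0 to 1013, with 1013 without miR-99 KD library 1 and 437 without library 2. Unadjusted p under 0.05 held for 2390 genes in edgeR and 2667 in DESeq2.

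The log2 differences over the libraries left out in turn ran from 1.56 to 2.03 for Banp, 1.11 to 1.44 for Paqr9 and 1.03 to 1.502 for Dynll1. Mean Dynll1 to Dynll2 ratios became 5.01 and 15.8 with the longest transcript, which rescales both groups alike.

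The 7 context lists held 97 tested genes. At an unadjusted p under 0.05, 4 of them were higher and 6 lower, against 5.97% and 9.63% of all genes. Library totals alone gave 0 and 11, and shifted the median of all genes from 0.02 to -0.07. Of all tested genes with an unadjusted p under 0.05, 79.1% were lower with library totals, against 61.7% with TMM. Leaving out 1 library gave 0 to 12 higher (0 without either Scr library, 12 without miR-99 KD library 1) and 1 to 13 lower (1 without Scr library 2, 10 and 13 without miR-99 KD libraries 1 and 2). For promoters with CTCGCGAG, 19 higher and 17 lower became 10 and 26 with library totals, 41 and 48 with TCGCGA, 18 and 15 in the 250-base window, an alternative chosen after seeing the data, and 4 to 41 and 3 to 23 over the libraries left out. The cause was not tested where no construction shows it.

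Numbers 1 and 2 are not said to pair the mice, and deviations of same-numbered libraries correlated at 0.057. With the replicate number as a block, 0 genes were called and the context lists gave 1 higher and 5 lower, with Dctn3, Dync1i2, Spdl1 and Paqr3 lost. Promoters with CTCGCGAG gave 13 higher and 12 lower. Banp stood at 1.80, Paqr9 at 1.28, Dynll1 at 1.27, Dynll2 at -0.32 (adjusted p 0.596) and Atmin at -0.27 (0.599). Chek2, Nek9, Pak1, Paqr5, Paqr7 and Trp53bp1 kept an unadjusted p under 0.05. Names inside the files number the libraries differently from the titles, which were followed here.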
